A study of Mus musculus with 10 samples.

Results

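Embryonic stem cells (ESC) of the mouse lines R1 and E14 were compared with the epiblast-like cells (EpiLC) made from them, by RNA sequencing. Of the 10 libraries of the series, 6 belong to this comparison: 3 of ESC and 3 of EpiLC, taken by line and culture as labelled. The ESC libraries are 2 replicates of R1 and 1 of E14. The EpiLC libraries are 1 of R1 without activin A, 1 of R1 with activin A at 20 ng/ml, and 1 of E14, for which the labels do not say whether activin A was added. Both lines are unmodified lines of strain 129SV. ESC were kept in serum-free N2B27 medium known as 2i+LIF, on dishes coated with poly-ornithine and laminin. It holds the cytokine LIF and inhibitors of MEK (PD0325901, 0.8 µM) and of GSK3 (CHIR99021, 3.3 µM). EpiLC had neither inhibitor and were plated on fibronectin in N2B27 with bFGF and knockout serum replacement, for 48 h. The growth medium, the coating and the state therefore change together and cannot be told apart.

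ESC in 2i+LIF are used as a model of the naive epiblast of the blastocyst, and EpiLC as a model of the epiblast just after implantation. In the embryo this step turns a loose cluster of cells into a polarised epithelium on a basement membrane, while naive transcription factors are switched off, DNA is methylated anew and energy metabolism is altered. The results are given for membrane transport, adhesion and matrix, metabolism and chromatin in turn. They rest on the 12244 genes whose mean level reached 1 FPKM (fragments per kilobase of transcript, scaled to the number of mapped fragments).

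The labels were checked against marker genes. Of 14 naive pluripotency genes tested, 11 fell in EpiLC and 1 rose, and of 15 formative and primed genes 11 rose and 1 fell. The naive factor genes Klf4 and Tfcp2l1 had 101, 73.7 and 88.4 and 175, 117 and 166 FPKM in ESC, and 1.09, 0.84 and 0.905 and 7.44, 8.79 and 3.58 in EpiLC, while the formative genes Fgf5 and Pou3f1 went from 0.809, 0.59 and 0.566 and 0.921, 1.66 and 1.32 to 28.4, 35.8 and 30.4 and 72.2, 42 and 68.9. Some genes of longer lists, of primitive endoderm (Gata4, Gata6, Sox17), mesoderm (T, Mesp1), trophoblast (Cdx2, Elf5) and fibroblasts (Col1a1, Postn), stayed under 3 FPKM in every library. The most abundant members of these 4 lists were others, in this order Dab2, Eomes, Tfap2c and Pdgfrb. Summed over whole lists, 9 trophoblast markers were at between 20.2 and 24.9 FPKM in ESC and 13.2 and 29.9 in EpiLC, with Krt7 called higher (log2 fold change 1.83), and 11 streak and mesoderm markers between 5.60 and 15.4 and between 6.69 and 9.95. Of the germline markers, 4 of 9 tested rose (0 to 6 with 1 library left out), against 9.73% of all genes. Among these was Dppa3, the naive gene that rose. All 10 summed to between 17.4 and 48.9 FPKM in ESC and 82.1 and 95.5 in EpiLC, of which Mael had 40.4, 37 and 35.1 in R1 EpiLC without activin A, R1 EpiLC with it and E14 EpiLC. Of the neural markers, 1 of 3 tested fell, the tubulin gene Tubb3. The sum of the neural markers went from between 42.8 and 57.7 to between 6.01 and 16.6 FPKM, and Tubb3 held most of it in ESC. Further sums were higher in EpiLC: 10 fibroblast markers summed to between 2.52 and 3.44 FPKM in ESC and 6.51 and 11.5 in EpiLC, and 12 primitive endoderm markers to between 2.50 and 4.12 and between 4.29 and 5.40, with Dab2 called higher (log2 fold change 1.48). Both Krt7 and Dab2 lost the call when at least 1 library was left out. The part of other cell types in the results was not tested beyond these values. In bulk RNA, fewer cells of a type and less RNA per cell cannot be told apart.

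Approximate depth ran from 6.6M fragments in E14 EpiLC to 20.6M in R1 ESC replicate 2, and between 11409 and 12133 genes reached 1 FPKM in a library. R1 ESC replicate 1 stood apart: 873 genes were 2-fold or more apart from replicate 2 of the same line and 518 from E14 ESC, against 62 between replicate 2 and E14 ESC. Among EpiLC, 47 genes were that far apart between the R1 libraries without and with activin A, 281 between E14 and R1 without it and 520 between E14 and R1 with it. Genes that passed only when this library was left out are given with the value of that fit.

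In all, 2484 of 12244 genes (20.3%) differed between EpiLC and ESC, 1191 (9.73%) higher and 1293 (10.6%) lower in EpiLC. Counts of list members below are to be read beside these shares. The test was limma on log2(FPKM + 1) with cell line as covariate, at a Benjamini-Hochberg adjusted p under 0.05. A gene that passed this test is said to have risen or fallen. The 3 EpiLC values all lay above the 3 ESC values in 2407 genes (19.7%) and below them in 3124 (25.5%), whether or not the test was passed. Every gene that passed had the same direction in R1 and in E14. In each list of values below, the 3 ESC libraries come in the order R1 replicate 1, R1 replicate 2, E14, and the 3 EpiLC libraries in the order R1 without activin A, R1 with activin A, E14. The log2 fold changes given are on the scale of FPKM + 1, which understates the change of genes with low values. Without R1 ESC replicate 1 the counts were larger, 1890 higher (15.4%) and 2228 lower (18.1%), and 1176 and 1267 of the calls above were also made then. Leaving out R1 EpiLC without activin A left 211 higher and 187 lower, and leaving out R1 EpiLC with it 322 and 276. Without E14 ESC they were 499 and 345, and without E14 EpiLC 441 and 332. Calls made in all 6 of these fits of 5 libraries numbered 194 higher and 176 lower. They are called firm below. Other calls are said to be lost without at least 1 library, which for some was most of the 6 fits. Dnmt3b, H19, Dag1, Jhdm1d and Slc39a4 passed in only 1 of the 6, the fit without R1 ESC replicate 1. Of the 193 genes named with values that passed, 101 lost the call without R1 EpiLC without activin A, 75 without R1 EpiLC with it, 68 without E14 EpiLC, 63 without E14 ESC, 14 without R1 ESC replicate 2 and 0 without R1 ESC replicate 1.

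**Figure D1:**
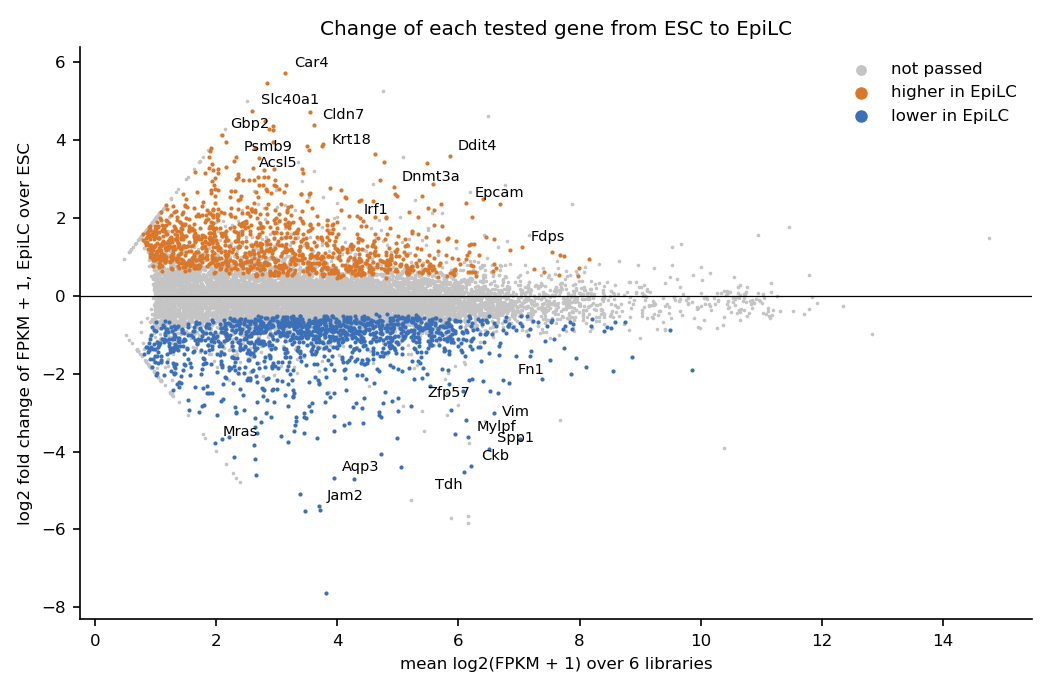
Change of each tested gene. The x axis is the mean log2(FPKM + 1) over 6 libraries, and the y axis is the log2 fold change of FPKM + 1 in EpiLC over ESC. Each point is 1 gene, orange where higher, blue where lower and grey where the test was not passed. Among the most abundant genes, at the right, more blue than orange points stand off from 0. At a mean of 100 FPKM or more, 67 of 869 genes were lower and 16 higher, against 10.6% and 9.73% of all genes.

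Most of the abundant genes that passed had fallen. Among 869 genes that averaged 100 FPKM or more, 67 were lower and 16 higher. Over all genes 10.6% were lower and 9.73% higher, so abundant genes were called less often in both directions. Ckb, the brain-type creatine kinase on chromosome 12 (112907566 to 112910549, mm9), had 373, 293 and 342 FPKM in ESC and 15.6, 14.5 and 15.3 in EpiLC, with no overlap and hardly any spread within a state (log2 fold change -4.38, SE 0.15, adjusted p = 0.000751). Mylpf, a myosin light chain gene known from fast muscle, had 327, 205 and 233 FPKM in ESC and 22.3, 17.1 and 18.7 in EpiLC (log2 fold change -3.63, SE 0.22, adjusted p = 0.00172). Stmn2, which encodes a tubulin-binding protein known from neurons, was at 341, 152 and 179 FPKM in ESC and 18.9, 21.8 and 25.9 in EpiLC (log2 fold change -3.2, SE 0.34, adjusted p = 0.00537). All 3 were therefore high in ESC, R1 replicate 1 highest, and low in EpiLC of both lines.

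Among the abundant genes that rose, Ddit4 came first. This gene, an inhibitor of mTORC1 signalling induced by stress, was at 13.8, 18.7 and 14.9 FPKM in ESC and 305, 267 and 97.9 in EpiLC (log2 fold change 3.59, SE 0.33, adjusted p = 0.0042), with E14 EpiLC between the ESC and R1 EpiLC values. The ERK phosphatase gene Dusp9 had 11.5, 57.3 and 61.4 FPKM in ESC and 169, 225 and 212 in EpiLC (log2 fold change 2.5, SE 0.61, adjusted p = 0.0428), and R1 ESC replicate 1 was far below the other ESC. Mkrn1, a ubiquitin ligase gene, went from 204, 205 and 201 FPKM in ESC to 395, 410.5 and 384 in EpiLC, with little spread in either state (log2 fold change 0.96, SE 0.13, adjusted p = 0.00967). Rbpms2, which encodes an RNA-binding protein, rose by 1.13, the growth factor gene Mdk by 1.03 and the imprinted gene Peg10 by 1.47. Ddit4 was a firm call. Dusp9, Mkrn1, Rbpms2, Mdk and Peg10 lost the call without at least 1 library, at adjusted p of up to 0.15 (Dusp9) by limma.

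Between nearly no RNA and a clear level, 10 genes were under 1 FPKM in all 3 ESC and at 10 FPKM or more in all 3 EpiLC libraries, and 8 the other way, 1 of them a microRNA entry. Those that came on included Cthrc1, a secreted protein gene of matrix-producing cells, at 0.591, 0.402 and 0.414 FPKM in ESC and 32, 31.6 and 32.8 in EpiLC (log2 fold change 4.5, SE 0.13, adjusted p = 0.000672), and Tmem54, with 0.12, 0.258 and 0.053 FPKM in ESC and 15.8, 10.7 and 27.4 in EpiLC (log2 fold change 3.96, SE 0.31, adjusted p = 0.00283). Wt1, a zinc finger transcription factor gene, was at 0.655, 0.657 and 0.675 FPKM in ESC and 20.9, 12.9 and 40.8 in EpiLC (log2 fold change 3.81, SE 0.32, adjusted p = 0.00348), with the highest EpiLC level in E14. Those that went off included Ntn1, the gene of the secreted guidance protein netrin-1, at 42.6, 20.8 and 30.7 FPKM in ESC and 0.383, 0.17 and 0.27 in EpiLC (log2 fold change -4.61, SE 0.28, adjusted p = 0.00172). Mras, a Ras-family GTPase gene, had 14.9, 10.8 and 15.3 FPKM in ESC and 0.0429, 0.0914 and 0.0568 in EpiLC (log2 fold change -3.77, SE 0.18, adjusted p = 0.00141), and Plagl1, an imprinted zinc finger gene, 28.2, 24.1 and 16 and 0.78, 0.494 and 0.612 FPKM (log2 fold change -3.83, SE 0.20, adjusted p = 0.00141). Just outside the count of genes that came on lay Gbp2, at 0.0196, 0.012 and 0.0204 FPKM in ESC and 19.3, 27.9 and 8.95 in EpiLC, with E14 EpiLC under 10 FPKM. The imprinted H19 RNA showed the widest spread among large rises, with 0.186, 1.81 and 1.2 FPKM in ESC and 122, 22.4 and 8.55 in EpiLC (log2 fold change 3.96, SE 0.88, adjusted p = 0.0329), so its level in R1 EpiLC without activin A was several times that of both other EpiLC libraries. Cthrc1, Tmem54, Wt1, Ntn1, Mras, Plagl1 and Gbp2 had firm calls. H19 passed in only 1 of the 6 fits with 1 library left out, with adjusted p of up to 0.0801 by limma.

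Of 25 metal ion carrier genes tested, 2 rose (1 to 4 with 1 library left out) and 4 fell (1 to 9), which is 24% called and near the 20.3% of all genes, and the median log2 fold change was -0.17, against -0.09 over all genes. Slc40a1, which encodes the iron exporter ferroportin, on chromosome 1 (45964915 to 45982439, mm9), was at 0.157, 0.0939 and 0.235 FPKM in ESC and 42.7, 42 and 15.7 in EpiLC (log2 fold change 4.76, SE 0.33, adjusted p = 0.00235). Its EpiLC values lay far above all ESC values, lowest in E14. Slc30a2, a zinc transporter gene, had 23.4, 10.4 and 15.8 FPKM in ESC and 2.09, 1.5 and 1.91 in EpiLC (log2 fold change -2.56, SE 0.31, adjusted p = 0.00724). Slc39a4, a zinc importer gene, was at 25.5, 25.7 and 24.5 FPKM in ESC and 16.7, 14.2 and 10.2 in EpiLC (log2 fold change -0.86, SE 0.16, adjusted p = 0.0214), while the abundant importer gene Slc39a10 had 33.4, 22 and 25.4 FPKM in ESC and 41.2, 39.7 and 56.8 in EpiLC and did not pass (log2 fold change 0.75, SE 0.22, adjusted p = 0.0667). The ferritin genes, which store iron, were abundant and did not pass: Fth1 had 750.0, 459 and 499 FPKM in ESC and 1168, 819.8 and 943 in EpiLC and Ftl1 3234, 3116 and 3831 FPKM in ESC and 2876, 2552 and 2289.5 in EpiLC. Tfrc, the gene of the transferrin receptor that takes up iron, had 119.9, 285 and 219.6 FPKM in ESC and 224, 261 and 185 in EpiLC and did not pass (log2 fold change 0.17, SE 0.36, adjusted p = 0.751). The Ftl1 values share reads with near-identical copies and are uncertain. Slc40a1 and Slc30a2 were firm calls. Slc39a4 lost the call without at least 1 library, at adjusted p of up to 0.113 by limma. Slc39a10 passed without R1 ESC replicate 1 (log2 fold change 0.97, limma adjusted p = 0.00671). Fth1 passed without R1 ESC replicate 1 (log2 fold change 1.02, limma adjusted p = 0.0206).

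Amino acid carriers, 32 genes tested, showed 3 rises (0 to 8 with 1 library left out) and 7 falls (2 to 9), median 0.08. Of those tested, 31.2% were called, against 20.3% of all genes. Slc7a1, the carrier of cationic amino acids such as arginine, was at 22.7, 32.9 and 31.7 FPKM in ESC and 5.52, 6.05 and 9.9 in EpiLC (log2 fold change -1.9, SE 0.20, adjusted p = 0.00511). Rises were seen in the glutamate carrier gene Slc1a3, at 6.13, 2.98 and 4.91 FPKM in ESC and 15.5, 13.7 and 15.1 in EpiLC (log2 fold change 1.51, SE 0.24, adjusted p = 0.0148), and in Slc43a2, a carrier of large neutral amino acids (log2 fold change 1.36, SE 0.18, adjusted p = 0.00952). The abundant members did not pass: Slc38a2 had 152, 73.5 and 86.1 FPKM in ESC and 113, 117 and 152 in EpiLC (log2 fold change 0.35, SE 0.31, adjusted p = 0.449), and Slc3a2, the heavy chain shared by several carriers, had 86.3, 93 and 75.1 FPKM in ESC and 53.5, 53.2 and 73.6 in EpiLC (log2 fold change -0.50, SE 0.19, adjusted p = 0.119). Slc7a1 was a firm call. Slc1a3 and Slc43a2 lost the call without at least 1 library, at adjusted p of up to 0.0839 (Slc1a3) by limma. Slc38a2 passed without R1 ESC replicate 1 (log2 fold change 0.71, limma adjusted p = 0.00933).

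The abundant glucose and lactate carriers did not pass. Of 12 sugar carriers tested 2 rose and 1 fell (0 to 2 and 0 to 1 with 1 library left out). That is 25% called, against 20.3% of all genes. Slc2a1, the glucose carrier GLUT1, had 96.9, 194 and 198 FPKM in ESC and 346, 305 and 155 in EpiLC, so that every R1 EpiLC value lay above every R1 ESC value and E14 EpiLC below E14 ESC (log2 fold change 1.24 in R1 and -0.35 in E14; the difference did not pass, limma adjusted p = 0.914). Slc2a3, the GLUT3 gene, was at 230.2, 502 and 451 FPKM in ESC and 389, 322 and 132 in EpiLC (log2 fold change -0.55, SE 0.48, adjusted p = 0.443), with E14 EpiLC lowest of all 6. Slc16a3, which encodes a lactate exporter, had 12.8, 83.2 and 104 FPKM in ESC and 158, 152 and 129 in EpiLC (log2 fold change 1.56, SE 0.76, adjusted p = 0.198), R1 ESC replicate 1 lying far below the other ESC. Slc16a3 passed without R1 ESC replicate 1 (log2 fold change 0.64, limma adjusted p = 0.0417).

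Carriers of other solutes included large changes at low levels. The nucleoside carrier gene Slc29a1 fell from 151, 99.3 and 84.9 to 34, 45.9 and 38.6 FPKM (log2 fold change -1.44, SE 0.24, adjusted p = 0.0155). The vitamin C carrier gene Slc23a1 was at 1.74, 1.87 and 1.84 FPKM in ESC and 8.75, 6.75 and 13.3 in EpiLC (log2 fold change 1.86, SE 0.21, adjusted p = 0.00596), highest in E14 EpiLC, and the thiamine carrier gene Slc19a3 rose by 1.45. Among 35 mitochondrial carriers 4 rose and 3 fell, which is 20% called and near the 20.3% of all genes. The largest fall was that of Slc25a20, the carnitine-acylcarnitine carrier that brings fatty acids into mitochondria, at 43.5, 80.8 and 61.9 FPKM in ESC and 17.4, 17.8 and 12.2 in EpiLC (log2 fold change -1.88, SE 0.27, adjusted p = 0.0112). Slc25a5, an abundant ADP/ATP carrier gene, had 729, 594 and 596 FPKM in ESC and 514, 473 and 657 in EpiLC and did not pass (log2 fold change -0.23, SE 0.19, adjusted p = 0.418). Slc25a36, a pyrimidine nucleotide carrier gene, fell by 1.28. Slc23a1 was a firm call. Slc29a1, Slc19a3, Slc25a20 and Slc25a36 lost the call without at least 1 library, at adjusted p of up to 0.0816 (Slc29a1) by limma.

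ABC transporters, pumps driven by ATP, showed 4 rises and 4 falls among 23 tested (34.8% called, against 20.3% of all genes). The cholesterol exporters moved in opposite directions. Abcg1 had 0.549, 0.699 and 0.654 FPKM in ESC and 6.7, 5.45 and 3.19 in EpiLC (log2 fold change 1.86, SE 0.23, adjusted p = 0.00741), and Abca1, which loads cholesterol onto apolipoprotein A-I, 2.96, 2.77 and 2.24 FPKM in ESC and 0.222, 0.276 and 0.231 in EpiLC (log2 fold change -1.55, SE 0.17, adjusted p = 0.00567). Of the relatives involved in peroxisomal and lysosomal transport, Abcd3, of peroxisomes, fell by 1.19 and Abcd4, of lysosomes, rose by 1.26. Abcg1, Abca1, Abcd3 and Abcd4 lost the call without at least 1 library, at adjusted p of up to 0.0745 (Abcd3) by limma.

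Ion channels gave 11 rises (3 to 13 with 1 library left out) and 8 falls (0 to 12) among 48 genes tested of 186 in the tables, median 0.17. Of those tested, 39.6% were called, against 20.3% of all genes. Kcnk1, a potassium channel gene of the tandem-pore family, was at 1.39, 4.75 and 2.41 FPKM in ESC and 32, 30.3 and 31.7 in EpiLC (log2 fold change 3.16, SE 0.34, adjusted p = 0.00527); its 3 EpiLC values were nearly equal and its ESC values were low. Among calcium channel subunits, Cacng7 had 16.5, 13.9 and 16.5 FPKM in ESC and 51.6, 42.9 and 41.2 in EpiLC (log2 fold change 1.47, SE 0.16, adjusted p = 0.00537), Cacng6 rose by 2.85, with E14 EpiLC at 7.48 FPKM against 23.1 and 28.8 in R1 EpiLC, and the pore subunit gene Cacna1b rose by 1.68. P2rx7, a channel gated by extracellular ATP, went from 1.52, 1.24 and 1.23 to 5.18, 6.75 and 5.5 FPKM (log2 fold change 1.54, SE 0.16, adjusted p = 0.00531). Kcnj12, an inward rectifier gene, had 1.87, 5.21 and 4.96 FPKM in ESC and 0.39, 0.224 and 0.323 in EpiLC (log2 fold change -1.85, SE 0.33, adjusted p = 0.019). Kcnk1, Cacng7 and P2rx7 had firm calls. Cacng6, Cacna1b and Kcnj12 lost the call without at least 1 library, at adjusted p of up to 0.101 (Cacng6) by limma.

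Among 25 P-type ATPases 3 rose and 3 fell, which is 24% called and near the 20.3% of all genes. The lipid flippases, which move phospholipids between membrane leaflets, gave the largest change each way: Atp10a had 0.369, 0.758 and 0.394 FPKM in ESC and 6.48, 6.58 and 7.77 in EpiLC (log2 fold change 2.4, SE 0.18, adjusted p = 0.00283) and Atp11a 7.5, 13.8 and 12.2 FPKM in ESC and 2.6, 2.04 and 1.89 in EpiLC (log2 fold change -1.9, SE 0.26, adjusted p = 0.00976). The V-type ATPase, which acidifies lysosomes and endosomes, had 1 rise and 6 falls among 17 subunit genes tested (0 to 1 and 0 to 8 with 1 library left out), median -0.52. That is 41.2% called. Its members summed to between 1135 and 1365 FPKM in ESC and 823 and 948 in EpiLC. The proteolipid gene Atp6v0c, the most abundant of these, was at 418, 257 and 363 FPKM in ESC and 133, 108 and 162 in EpiLC (log2 fold change -1.35, SE 0.23, adjusted p = 0.0171), and Atp6v0a2 fell by 1.1. Atp10a was a firm call. Atp11a, Atp6v0c and Atp6v0a2 lost the call without at least 1 library, at adjusted p of up to 0.105 (Atp6v0a2) by limma.

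Of 7 water channel and gap junction genes tested, 4 were lower and 0 higher (2 to 4 and 0 to 1 with 1 library left out), against 10.6% lower over all genes, and at an unadjusted p under 0.05 by limma still 0 were higher. Aqp3, the aquaglyceroporin gene on chromosome 4 (41039757 to 41045216, mm9), had 37.8, 86.2 and 137 FPKM in ESC and 2.22, 3.26 and 1.04 in EpiLC (log2 fold change -4.67, SE 0.54, adjusted p = 0.00628). The connexin gene Gjb5 was at 20.0, 14.3 and 15.5 FPKM in ESC and 3.9, 2.07 and 1.46 in EpiLC (log2 fold change -2.39, SE 0.26, adjusted p = 0.00554). In both genes the ESC and EpiLC values did not overlap and E14 EpiLC was lowest. Gjc1 fell by 1.48. Gja1, connexin 43, the most abundant connexin gene of EpiLC here, did not pass and varied widely within ESC, at 108, 12.5 and 28.9 FPKM in ESC and 56.5, 44.9 and 144 in EpiLC (log2 fold change 1.04, SE 0.85, adjusted p = 0.41). Aqp3 and Gjb5 had firm calls. Gjc1 lost the call without at least 1 library, at adjusted p of up to 0.0802 by limma. Gja1 passed without R1 ESC replicate 1 (log2 fold change 2.08, limma adjusted p = 0.00333).

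**Figure D2:**
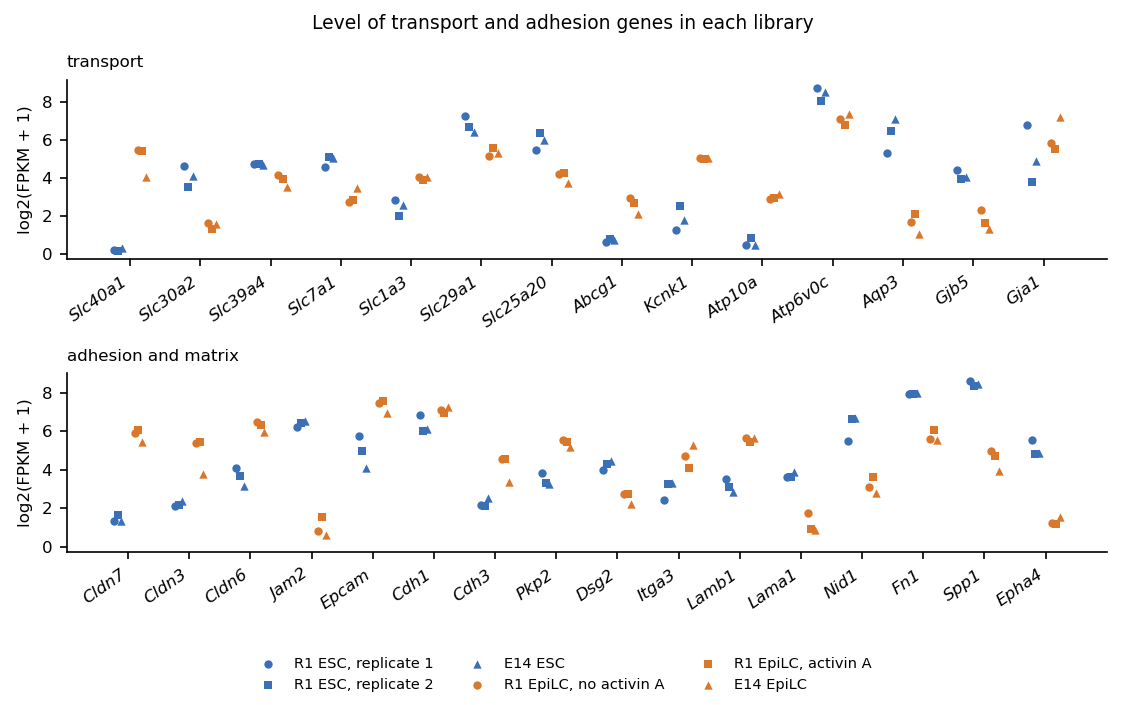
Level of transport genes (top) and adhesion and matrix genes (bottom) in each library. The y axis is log2(FPKM + 1), each point is 1 library, blue for ESC and orange for EpiLC, with the symbol giving the library. Jam2, Spp1, Epha4 and Aqp3 lie far lower in the 3 EpiLC libraries, Slc40a1, Cldn7, Epcam and Lamb1 far higher, and Gja1 overlaps between the states.

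Of 22 tight junction genes tested, 11 rose (3 to 13 with 1 library left out) and 1 fell (1 in each such fit), against 9.73% and 10.6% of all genes, with a median of 0.80. Cldn7, a claudin gene on chromosome 11 (69778281 to 69781388, mm9), was at 1.5, 2.08 and 1.49 FPKM in ESC and 59.5, 65.9 and 42.9 in EpiLC (log2 fold change 4.39, SE 0.16, adjusted p = 0.000793). Cldn6 had 16.2, 11.8 and 7.83 FPKM in ESC and 89, 79.1 and 60.9 in EpiLC (log2 fold change 2.61, SE 0.17, adjusted p = 0.00221) and Cldn3 3.33, 3.54 and 4.26 FPKM in ESC and 41, 42.9 and 12.8 in EpiLC (log2 fold change 2.65, SE 0.40, adjusted p = 0.0125), with E14 EpiLC the lowest of the EpiLC for all 3 claudins. The single member that fell was Jam2, which encodes a junctional adhesion molecule, on chromosome 16 (84774368 to 84826620, mm9), at 74.6, 84.1 and 92.7 FPKM in ESC and 0.775, 1.93 and 0.504 in EpiLC (log2 fold change -5.41, SE 0.27, adjusted p = 0.00141). Cldn7, Cldn6 and Jam2 were firm calls. Cldn3 lost the call without at least 1 library, at adjusted p of up to 0.0658 by limma.

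Among 28 adherens junction and polarity genes 7 rose and 3 fell (2 to 9 and 0 to 5 with 1 library left out), so 35.7% were called, against 20.3% of all genes. Epcam, the epithelial cell adhesion molecule gene, had 53.7, 29.9 and 15.8 FPKM in ESC and 174, 188 and 124 in EpiLC (log2 fold change 2.39, SE 0.28, adjusted p = 0.00675). Inadl, also called Patj, a scaffold of the apical Crumbs complex, was at 1.51, 0.988 and 1.2 FPKM in ESC and 11, 11.4 and 11.8 in EpiLC (log2 fold change 2.48, SE 0.15, adjusted p = 0.00177), and Shroom4, of a family that binds apical actin, rose by 1.53. Llgl2, of the basolateral Scribble group, fell by 1.13. Cdh1, the E-cadherin gene, had 116, 62.8 and 68.8 FPKM in ESC and 135, 121 and 151 in EpiLC and did not pass (log2 fold change 0.76, SE 0.27, adjusted p = 0.109), R1 ESC replicate 1 lying close to the EpiLC values. Ctnnb1, the beta-catenin gene, had 279, 263 and 299 FPKM in ESC and 263, 240.0 and 296 in EpiLC and did not pass (log2 fold change -0.08, SE 0.13, adjusted p = 0.703). The P-cadherin gene Cdh3 had 3.43, 3.38 and 4.86 FPKM in ESC and 22.2, 22.5 and 9.21 in EpiLC (log2 fold change 1.87, SE 0.34, adjusted p = 0.0204), so its change was smaller in E14. Pcdh1, the 1 protocadherin tested of 34 in the tables, had 0.741, 1.01 and 0.642 FPKM in ESC and 12.9, 8.85 and 22.8 in EpiLC (log2 fold change 3.05, SE 0.31, adjusted p = 0.00488). Desmosome genes gave 4 rises and 1 fall among 9 (55.6% called): the plakophilin gene Pkp2 was at 13.4, 8.77 and 8.44 FPKM in ESC and 45.8, 42 and 34.7 in EpiLC (log2 fold change 1.92, SE 0.18, adjusted p = 0.00438), and the desmoglein gene Dsg2 at 14.6, 18.9 and 20.6 FPKM in ESC and 5.65, 5.55 and 3.73 in EpiLC (log2 fold change -1.68, SE 0.21, adjusted p = 0.0085). Epcam, Inadl, Pcdh1, Pkp2 and Dsg2 had firm calls. Shroom4, Llgl2 and Cdh3 lost the call without at least 1 library, at adjusted p of up to 0.098 (Cdh3) by limma. Cdh1 passed without R1 ESC replicate 1 (log2 fold change 1.06, limma adjusted p = 0.00487).

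Of 26 basement membrane and matrix glycoprotein genes tested, 3 rose (1 to 4 with 1 library left out) and 12 fell (6 to 14), against 9.73% and 10.6% of all genes, with a median of -0.85. Their summed level was between 1449.5 and 1606 FPKM in ESC and between 606 and 726 in EpiLC. Spp1, which encodes osteopontin, on chromosome 5 (104864130 to 104870072, mm9), had 393, 323 and 344 FPKM in ESC and 30.3, 25 and 14.5 in EpiLC (log2 fold change -3.93, SE 0.23, adjusted p = 0.00159). Fn1, the fibronectin gene, was at 242, 244 and 256 FPKM in ESC and 46.5, 65.1 and 46.1 in EpiLC (log2 fold change -2.23, SE 0.18, adjusted p = 0.00314), in cells plated on added fibronectin. The nidogen gene Nid1 had 44.4, 99.1 and 101 FPKM in ESC and 7.68, 11.2 and 5.82 in EpiLC (log2 fold change -3.11, SE 0.41, adjusted p = 0.00906). Spp1 and Fn1 were firm calls. Nid1 lost the call without at least 1 library, at adjusted p of up to 0.0526 by limma.

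Laminin chain genes, whose products form trimers of an alpha, a beta and a gamma chain, did not change alike. Lama1 had 11.4, 11.5 and 13.8 FPKM in ESC and 2.38, 0.859 and 0.833 in EpiLC (log2 fold change -2.55, SE 0.29, adjusted p = 0.00599), and the beta-2 and gamma-1 chain genes Lamb2 and Lamc1 fell by 1.81 and 1.31. Lamb1, the beta-1 chain gene, went the other way, at 10.3, 7.43 and 6.27 FPKM in ESC and 49.2, 42 and 48.9 in EpiLC (log2 fold change 2.43, SE 0.20, adjusted p = 0.00314). Thbs1, a thrombospondin gene, rose from near 0, at 0.538, 0.0692 and 0.0557 FPKM in ESC and 10.6, 4.02 and 4.23 in EpiLC (log2 fold change 2.49, SE 0.36, adjusted p = 0.0116), and Col18a1, the 1 of 6 collagen genes tested that passed, rose by 1.34. Without R1 ESC replicate 1, where Col5a3 also reached the mean of 1 FPKM and was tested, 5 collagen genes fell and 2 rose. All collagen genes in the tables summed to between 78.1 and 83.6 FPKM in ESC and 136 and 151 in EpiLC. Col18a1 had 62.3, 32.9 and 46.4 FPKM in ESC and 111, 112 and 128 in EpiLC, so it made up most of the sum in EpiLC but not in every ESC library. The laminin receptor subunits Itga3, Itga6 and Itgb1 rose by 1.69, 0.79 and 0.61, with Itgb1 at 33.9, 40.3 and 43.7 FPKM in ESC and 58, 56.7 and 66.8 in EpiLC. Itga9 fell by 1.73, and the fibronectin receptor subunit gene Itga5 had 13, 32 and 30.8 FPKM in ESC and 10.9, 13.2 and 11.4 in EpiLC and did not pass (log2 fold change -0.93, SE 0.36, adjusted p = 0.124). Dag1, the gene of the laminin-binding dystroglycan, rose by 0.62. Lama1, Lamb2 and Lamb1 had firm calls. Lamc1, Thbs1, Col18a1, Itga3, Itga6, Itgb1, Itga9 and Dag1 lost the call without at least 1 library, at adjusted p of up to 0.241 (Dag1) by limma. Itga5 passed without R1 ESC replicate 1 (log2 fold change -1.35, limma adjusted p = 0.00437).

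Other surface molecules gave single large changes. Of those tested, 28.6% of Eph receptors and ephrins and 30% of semaphorin, plexin and neuropilin genes were called. Of matrix proteases and their inhibitors 40% were called, against 20.3% of all genes. Among 14 Eph receptors and ephrins tested 3 rose and 1 fell: the receptor gene Epha4 had 45, 27.4 and 28 FPKM in ESC and 1.38, 1.24 and 1.91 in EpiLC (log2 fold change -3.75, SE 0.25, adjusted p = 0.0022), and the ligand gene Efnb2 2.82, 1.09 and 1.15 FPKM in ESC and 10.4, 7.89 and 18.2 in EpiLC (log2 fold change 2.27, SE 0.38, adjusted p = 0.0157). Of 20 semaphorin, plexin and neuropilin genes, 3 rose and 3 fell, with Sema4c up by 2.05. Among the falls, Sema4b fell by 1.26 and Sema6c fell by 1.2. Emb, the gene of embigin, an immunoglobulin-domain protein, was at 29.6, 26.4 and 13.7 FPKM in ESC and 128, 109 and 119.5 in EpiLC (log2 fold change 2.37, SE 0.24, adjusted p = 0.00501), while Ncam1 and Ceacam1 fell by 1.86 and 1.5. Bsg, the gene of basigin, a relative of embigin, had 309.6, 291 and 284 FPKM in ESC and 341, 330.2 and 249.5 in EpiLC and did not pass (log2 fold change 0.04, SE 0.15, adjusted p = 0.85). Matrix proteases and their inhibitors gave 4 rises and 4 falls among 20. Mmp25, a membrane-type metalloproteinase gene, had 0.369, 0.546 and 0.661 FPKM in ESC and 7.95, 5.84 and 12.8 in EpiLC (log2 fold change 2.64, SE 0.21, adjusted p = 0.00314), and Timp1, an inhibitor of such proteases, 42.3, 34.7 and 40.5 FPKM in ESC and 11, 8.36 and 13.7 in EpiLC (log2 fold change -1.76, SE 0.18, adjusted p = 0.00501). Epha4, Emb, Mmp25 and Timp1 were firm calls. Efnb2, Sema4c, Sema4b, Sema6c, Ncam1 and Ceacam1 lost the call without at least 1 library, at adjusted p of up to 0.0775 (Efnb2) by limma.

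Cytoskeleton genes changed in both directions. Of 54 actin, myosin and intermediate filament genes tested, 12 rose (2 to 13 with 1 library left out) and 9 fell (2 to 12), against 9.73% and 10.6% of all genes, median -0.24. Krt18, a keratin of simple epithelia, was at 2.32, 3.06 and 2.2 FPKM in ESC and 70.9, 84.6 and 20.6 in EpiLC (log2 fold change 3.86, SE 0.37, adjusted p = 0.00438), and Flnc, a filamin gene known from muscle, at 1.2, 2.01 and 2.34 FPKM in ESC and 18.6, 10.7 and 24.8 in EpiLC (log2 fold change 2.69, SE 0.26, adjusted p = 0.00448). Krt7 rose by 1.83, while Krt42, another keratin gene, fell by 1.96. Of the myosin light chain genes, Myl9 rose by 1.9 and Myl7 fell by 1.7. Keratin genes have near-identical processed copies, so their values are uncertain. Vim, the intermediate filament gene vimentin of mesenchymal cells, had 314, 172 and 244 FPKM in ESC and 39.8, 40.3 and 44.1 in EpiLC (log2 fold change -2.49, SE 0.25, adjusted p = 0.00469). Among 21 tubulin genes 3 rose and 2 fell (23.8% called, near the 20.3% of all genes). Tubb3, known from neurons, had 49.8, 34.5 and 50.1 FPKM in ESC and 4.71, 2.36 and 6.83 in EpiLC (log2 fold change -3.09, SE 0.28, adjusted p = 0.00395) and Tubb2b fell by 1.54, while Tuba1a rose by 0.70. Actb, often used as a reference gene, was not stable among ESC, at 2431, 818 and 1265 FPKM in ESC and 793, 564 and 986 in EpiLC (log2 fold change -0.84, SE 0.45, adjusted p = 0.24), with R1 ESC replicate 1 several times above replicate 2. Krt18, Flnc, Krt42, Vim, Tubb3 and Tubb2b had firm calls. Krt7, Myl9, Myl7 and Tuba1a lost the call without at least 1 library, at adjusted p of up to 0.173 (Tuba1a) by limma.

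**Figure D3:**
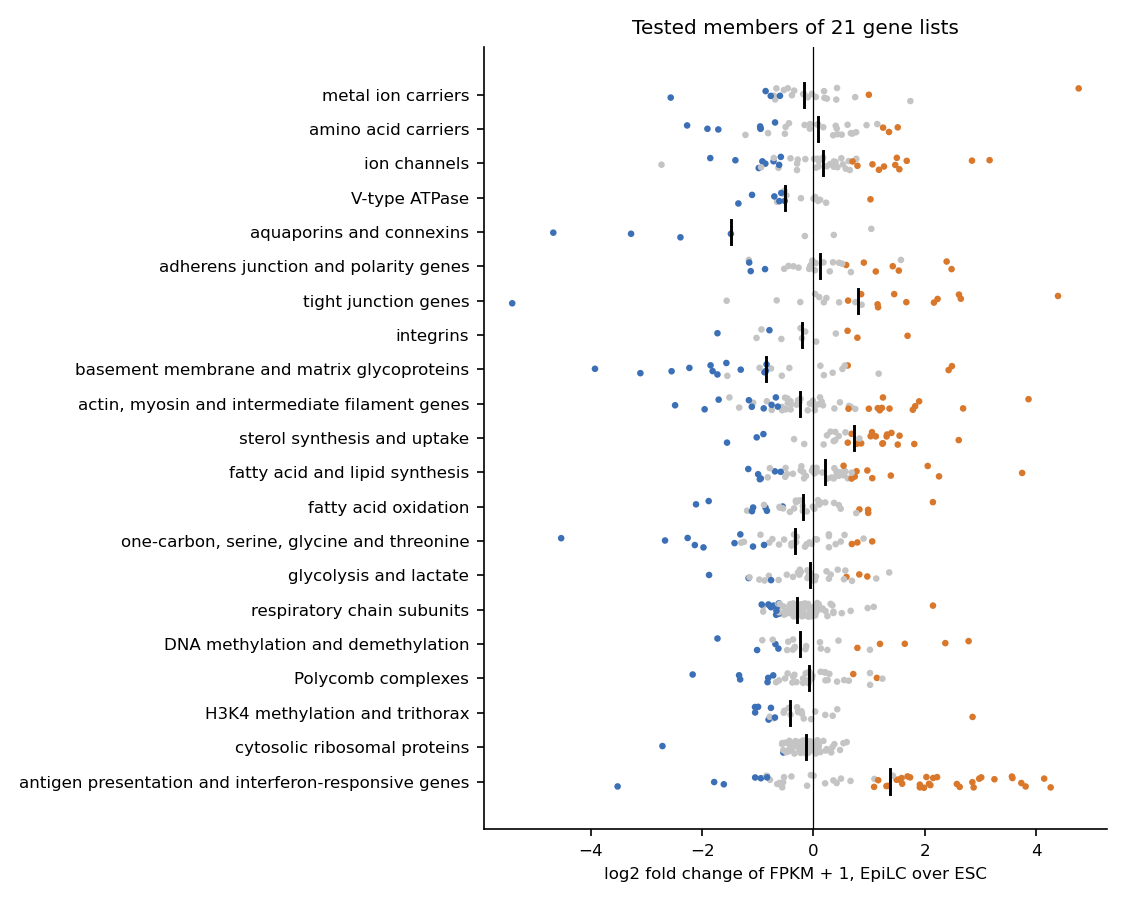
Log2 fold change of FPKM + 1, EpiLC over ESC (x axis), of each tested member of 21 gene lists (rows). Each point is 1 gene, orange where it rose, blue where it fell and grey where it did not pass, and the black bar is the list's median. The medians of the tight junction (0.80), sterol (0.73) and antigen presentation (1.38) lists lie to the right of 0, and those of the matrix (-0.85) and the aquaporin and connexin (-1.48) lists to the left.

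Amino acid metabolism lost several abundant transcripts. Of 38 genes of one-carbon, serine, glycine and threonine metabolism tested, 3 rose (0 to 6 with 1 library left out) and 9 fell (3 to 11), median -0.34. That is 31.6% called, against 20.3% of all genes. Tdh, threonine dehydrogenase, which mouse ESC use to feed one-carbon metabolism and acetyl-CoA, had 449, 246 and 321 FPKM in ESC and 14.2, 5.34 and 28.9 in EpiLC (log2 fold change -4.53, SE 0.52, adjusted p = 0.00627). The level left in EpiLC differed between libraries, highest in E14 and lowest in R1 with activin A. Asns, asparagine synthetase, was at 460.0, 330.4 and 274 FPKM in ESC and 83, 70.4 and 82.2 in EpiLC (log2 fold change -2.13, SE 0.22, adjusted p = 0.00501), and Bcat1, which transaminates branched-chain amino acids, at 169.9, 98.9 and 117 FPKM in ESC and 27.3, 23.5 and 25.3 in EpiLC (log2 fold change -2.26, SE 0.23, adjusted p = 0.00501). Phgdh, the first enzyme of serine synthesis, went the other way, at 33.9, 61.2 and 52.2 FPKM in ESC and 103, 89.8 and 108 in EpiLC (log2 fold change 1.05, SE 0.24, adjusted p = 0.0363). Dmgdh, of choline degradation to sarcosine, had 14.3, 3.43 and 4.75 FPKM in ESC and 0.215, 0.18 and 0.0639 in EpiLC (log2 fold change -2.67, SE 0.47, adjusted p = 0.0183), with R1 ESC replicate 1 well above both other ESC. Tdh, Asns and Bcat1 were firm calls. Phgdh and Dmgdh lost the call without at least 1 library, at adjusted p of up to 0.163 (Phgdh) by limma.

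Among 16 polyamine, arginine and creatine genes 37.5% were called, against 20.3% of all genes. Of them 1 rose and 5 fell (0 to 3 and 1 to 6 with 1 library left out). Besides Ckb these included Ass1, argininosuccinate synthase, which makes arginine, at 108, 63.3 and 74.5 FPKM in ESC and 16.1, 13.7 and 24 in EpiLC (log2 fold change -2.13, SE 0.28, adjusted p = 0.00912). Gatm, the first enzyme of creatine synthesis, rose from near 0, at 0.423, 0.115 and 0.134 FPKM in ESC and 2.53, 2.15 and 4.31 in EpiLC (log2 fold change 1.68, SE 0.25, adjusted p = 0.0122). The creatine kinase gene and the creatine synthesis gene thus moved in opposite directions. Ass1 and Gatm lost the call without at least 1 library, at adjusted p of up to 0.0769 (Gatm) by limma.

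Of 30 genes of sterol synthesis and uptake tested, 16 rose (3 to 21 with 1 library left out) and 3 fell (0 to 3), against 9.73% and 10.6% of all genes, with a median of 0.73, and the summed level was between 795 and 974 FPKM in ESC and 1449.5 and 1650.3 in EpiLC. Fdps, farnesyl diphosphate synthase, was at 91.3, 78.1 and 85.7 FPKM in ESC and 213, 202 and 194 in EpiLC (log2 fold change 1.25, SE 0.14, adjusted p = 0.00567), and Sc4mol, a sterol demethylation enzyme also called Msmo1, rose by 1.31. Soat1, which esterifies cholesterol for storage, was at 8.5, 6.1 and 6.62 FPKM in ESC and 26.9, 23.2 and 31.9 in EpiLC (log2 fold change 1.81, SE 0.19, adjusted p = 0.00502). The members that fell were not synthesis enzymes alone: besides Ebp they were the exporter gene Abca1 and Npc2, which carries cholesterol out of lysosomes, at 97.2, 68.3 and 81 FPKM in ESC and 41.8, 44.9 and 33.1 in EpiLC (log2 fold change -1.02, SE 0.19, adjusted p = 0.0205). Sc4mol and Soat1 were firm calls. Fdps and Npc2 lost the call without at least 1 library, at adjusted p of up to 0.111 (Npc2) by limma.

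Of 46 genes of fatty acid and lipid synthesis 10 rose (2 to 13 with 1 library left out) and 6 fell (0 to 10), so 34.8% were called, against 20.3% of all genes. The rises were largest in enzymes that activate and desaturate long chains: Acsl5, an acyl-CoA synthetase on chromosome 19 (55327859 to 55371118, mm9), had 1.66, 2.77 and 2.15 FPKM in ESC and 43.9, 42.2 and 38.6 in EpiLC (log2 fold change 3.75, SE 0.17, adjusted p = 0.00141), Acsl4 12.6, 5.29 and 7.45 FPKM in ESC and 34, 34.2 and 40.8 in EpiLC (log2 fold change 2.05, SE 0.31, adjusted p = 0.0124), and the desaturase gene Fads2 17.3, 20.5 and 21.6 FPKM in ESC and 102, 111 and 82.2 in EpiLC (log2 fold change 2.25, SE 0.18, adjusted p = 0.00288). Agpat2, of phosphatidic acid synthesis, fell by 0.99. The core synthase gene Fasn had 106, 57.2 and 80.6 FPKM in ESC and 69, 67.8 and 108 in EpiLC and did not pass (log2 fold change 0.02, SE 0.28, adjusted p = 0.971), nor did the desaturase gene Scd2, at 139, 98.5 and 103 FPKM in ESC and 165, 198 and 158 in EpiLC (log2 fold change 0.62, SE 0.18, adjusted p = 0.0705). Acsl5 and Fads2 had firm calls. Acsl4 and Agpat2 lost the call without at least 1 library, at adjusted p of up to 0.0775 (Agpat2) by limma. Scd2 passed without R1 ESC replicate 1 (log2 fold change 0.76, limma adjusted p = 0.0169).

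Fatty acid oxidation gave 4 rises (1 to 5 with 1 library left out) and 7 falls (1 to 13) among 37 genes tested (29.7% called, against 20.3% of all genes). Acox3, a peroxisomal oxidase gene, had 13.2, 11.2 and 9.58 FPKM in ESC and 2.17, 2.15 and 1.27 in EpiLC (log2 fold change -2.11, SE 0.14, adjusted p = 0.00221), and the mitochondrial dehydrogenase gene Acadm 128, 88.3 and 83.6 FPKM in ESC and 45.1, 46.3 and 43.9 in EpiLC (log2 fold change -1.1, SE 0.19, adjusted p = 0.0163). Decr2, a peroxisomal reductase gene, fell by 1.08. Acot1, a cytosolic acyl-CoA thioesterase gene with close paralogues, was at 0.638, 1.38 and 1.08 FPKM in ESC and 7.79, 7.31 and 8.62 in EpiLC (log2 fold change 2.15, SE 0.19, adjusted p = 0.0039). Fabp3, a fatty acid binding protein gene outside these lists, was among the most abundant transcripts that fell, at 217, 265 and 341 FPKM in ESC and 46.3, 56.7 and 13.1 in EpiLC (log2 fold change -3.0, SE 0.51, adjusted p = 0.0164). Acox3 and Acot1 were firm calls. Acadm, Decr2 and Fabp3 lost the call without at least 1 library, at adjusted p of up to 0.101 (Acadm) by limma.

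**Figure D4:**
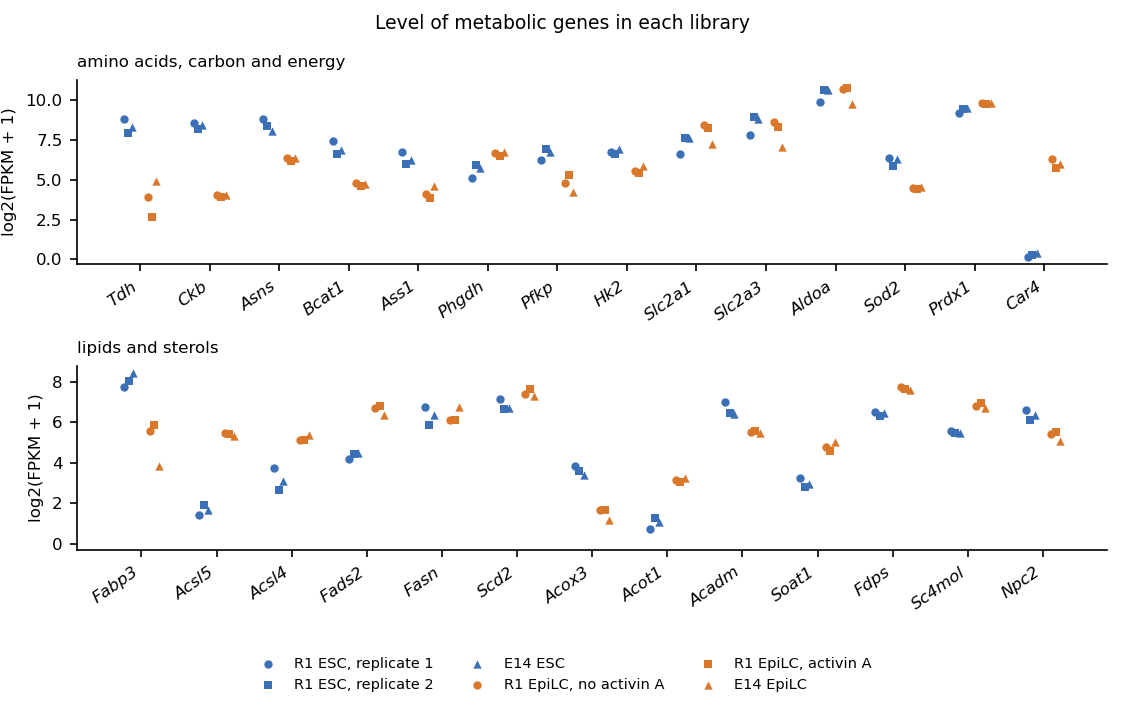
Level of metabolic genes in each library, with the y axis as log2(FPKM + 1). The top row holds genes of amino acid, carbon and energy metabolism and the bottom row genes of lipids and sterols. Each point is 1 library, blue for ESC and orange for EpiLC. Tdh, Ckb, Fabp3 and Acox3 lie lower in all 3 EpiLC libraries, Car4 and Acsl5 higher, and Slc2a1, Slc2a3 and Aldoa overlap between the states.

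Of 34 glycolysis genes tested 3 rose and 3 fell (0 to 4 and 0 to 7 with 1 library left out). That is 17.6% called, near the 20.3% of all genes, and the median was 0.12 in R1 and -0.44 in E14. Pfkp, a phosphofructokinase gene, had 75.2, 123 and 109 FPKM in ESC and 26.9, 38.6 and 18 in EpiLC (log2 fold change -1.88, SE 0.31, adjusted p = 0.0162), and Hk2, hexokinase 2, 107, 99.7 and 122 FPKM in ESC and 46.8, 41.4 and 57.4 in EpiLC (log2 fold change -1.17, SE 0.13, adjusted p = 0.00604). Pdk1, which restrains pyruvate entry into mitochondria, rose by 0.97. The aldolase gene Aldoa, among the most abundant of the list, had 939, 1599 and 1629 FPKM in ESC and 1689, 1722 and 889.6 in EpiLC and did not pass (log2 fold change 0.03, SE 0.36, adjusted p = 0.965). Ldha, a lactate dehydrogenase gene, had 836, 1136 and 1376 FPKM in ESC and 1175, 1076 and 986 in EpiLC and did not pass either (log2 fold change -0.02, SE 0.23, adjusted p = 0.953). Of 26 genes of the tricarboxylic acid cycle, 0 rose (4 at an unadjusted p under 0.05 by limma) and 3 fell (11.5% called), among them Sucla2, by 0.72. Idh1, an NADPH-producing cytosolic enzyme, fell by 1.14. Among 86 respiratory chain subunits 1 rose and 10 fell (1 to 2 and 0 to 16 with 1 library left out), median -0.30. With 12.8% called, this list lay under the share of all genes. Cox6b1, an abundant subunit of complex IV, had 435, 340.1 and 361 FPKM in ESC and 246, 219.7 and 201 in EpiLC (log2 fold change -0.76, SE 0.16, adjusted p = 0.029), Ndufb10, of complex I, fell by 0.93, and Cox8c, a tissue-restricted isoform, rose from near 0, at 0.144, 0.127 and 0.704 FPKM in ESC and 3.1, 3.91 and 8.47 in EpiLC (log2 fold change 2.15, SE 0.19, adjusted p = 0.0039). Cox8c was a firm call. Pfkp, Hk2, Pdk1, Sucla2, Idh1, Cox6b1 and Ndufb10 lost the call without at least 1 library, at adjusted p of up to 0.156 (Cox6b1) by limma.

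Redox genes gave 11 rises (3 to 14 with 1 library left out) and 5 falls (1 to 9) among 55 tested (29.1% called, against 20.3% of all genes). Sod2, the mitochondrial superoxide dismutase gene, fell, at 80.5, 57.6 and 76.9 FPKM in ESC and 21.1, 20.7 and 22.3 in EpiLC (log2 fold change -1.69, SE 0.17, adjusted p = 0.00469), as did Gss, glutathione synthetase, by 1.47. Transferases that join glutathione to other molecules changed in both directions. Gstm5 had 1.49, 2.08 and 2.34 FPKM in ESC and 12.3, 12.1 and 11.9 in EpiLC (log2 fold change 2.15, SE 0.16, adjusted p = 0.00262), and Mgst1 and Gstt1 rose by 1.72 and 1.68. Gsta3 fell, at 14.9, 5.7 and 6.98 FPKM in ESC and 1.41, 0.677 and 0.941 in EpiLC (log2 fold change -2.25, SE 0.37, adjusted p = 0.015). The metallothionein gene Mt3 was at 3.22, 0.57 and 2.66 FPKM in ESC and 24.6, 12.4 and 26 in EpiLC (log2 fold change 2.86, SE 0.44, adjusted p = 0.013). The peroxiredoxin gene Prdx1, among the most abundant of these, had 594, 694 and 724 FPKM in ESC and 925, 890.3 and 904 in EpiLC and did not pass (log2 fold change 0.44, SE 0.15, adjusted p = 0.101). Sod2, Gstm5, Mgst1 and Gstt1 were firm calls. Gss, Gsta3 and Mt3 lost the call without at least 1 library, at adjusted p of up to 0.0786 (Gss) by limma.

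Car4, a carbonic anhydrase anchored at the cell surface, on chromosome 11 (84771256 to 84779556, mm9), had the largest rise of all genes that passed with no value of 0, at 0.122, 0.211 and 0.318 FPKM in ESC and 76.9, 53.5 and 62 in EpiLC (log2 fold change 5.73, SE 0.18, adjusted p = 0.000672). Relatives followed at lower fold: Car12, also at the surface, was at 0.0847, 0.219 and 0.139 FPKM in ESC and 3.89, 2.72 and 2.64 in EpiLC (log2 fold change 1.82, SE 0.20, adjusted p = 0.00554), and the cytosolic Car2 at 26.9, 20.8 and 27.1 FPKM in ESC and 80.3, 50.1 and 183 in EpiLC (log2 fold change 1.83, SE 0.35, adjusted p = 0.022), highest in E14 EpiLC. The retinol dehydrogenase gene Rdh11 rose by 1.99. Of 53 genes of glycogen and glycan synthesis 11 rose and 7 fell (34% called, against 20.3% of all genes). Gbe1, the glycogen branching enzyme, had 2.35, 1.6 and 1.92 FPKM in ESC and 10.9, 11.2 and 7.63 in EpiLC (log2 fold change 1.88, SE 0.18, adjusted p = 0.0045), and Pygl, a glycogen phosphorylase gene, rose by 1.96, while Pgm1 fell by 1.26. St6gal1, which adds sialic acid to glycans, was at 1.82, 1.94 and 1.47 FPKM in ESC and 9.78, 7.8 and 9.03 in EpiLC (log2 fold change 1.85, SE 0.16, adjusted p = 0.00348). Car4, Rdh11, Gbe1 and St6gal1 had firm calls. Car12, Car2, Pygl and Pgm1 lost the call without at least 1 library, at adjusted p of up to 0.101 (Car2) by limma.

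In the chromatin lists between 9.76% and 37.5% of the members tested were called, against 20.3% of all genes. By list it was 37.5% for DNA methylation, 20.5% for Polycomb, 30.4% for H3K4 methylation, 16.7% for other methyltransferases and 23.3% for demethylases. It was 16.7% for acetyltransferases, 22.2% for deacetylases, 19.1% for remodellers, 9.76% for histone variants and 22.2% for heterochromatin. Of 24 genes of DNA methylation and demethylation, 5 rose (1 to 6 with 1 library left out) and 4 fell (1 to 7). Dnmt3a, a de novo methyltransferase gene on chromosome 12 (3806980 to 3914443, mm9), had 9.63, 10.5 and 11.7 FPKM in ESC and 69.4, 68.4 and 104 in EpiLC (log2 fold change 2.79, SE 0.14, adjusted p = 0.00141). Dnmt3b was at 77.1, 28.6 and 39.7 FPKM in ESC and 239, 159 and 337 in EpiLC (log2 fold change 2.37, SE 0.44, adjusted p = 0.0213), with R1 ESC replicate 1 above both other ESC and E14 EpiLC highest. Tet2, which oxidises methylcytosine, had 33.3, 39.9 and 38.6 FPKM in ESC and 10.3, 13.1 and 8.71 in EpiLC (log2 fold change -1.72, SE 0.18, adjusted p = 0.00502). Zfp57, a zinc finger gene that protects methylation at imprints, was at 313, 162 and 189 FPKM in ESC and 35.9, 44.4 and 34.8 in EpiLC (log2 fold change -2.45, SE 0.27, adjusted p = 0.00595), and Trim28, the co-repressor it works with, had 1147, 645 and 796 FPKM in ESC and 453, 385 and 563 in EpiLC and did not pass (log2 fold change -0.86, SE 0.27, adjusted p = 0.0834). Dnmt3a, Tet2 and Zfp57 were firm calls. Dnmt3b passed in only 1 of the 6 fits with 1 library left out, with adjusted p of up to 0.106 by limma. Trim28 passed without R1 ESC replicate 1 (log2 fold change -0.57, limma adjusted p = 0.0298).

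Polycomb genes, which repress by methylating H3K27 and ubiquitinating H2A, gave 2 rises and 6 falls among 39 (0 to 4 and 0 to 7 with 1 library left out). Eed, a core subunit of the H3K27 methyltransferase, had 176, 99.3 and 122 FPKM in ESC and 49, 43.6 and 62.2 in EpiLC (log2 fold change -1.32, SE 0.26, adjusted p = 0.0246), and Pcgf2, of the ubiquitinating complex, 53.9, 42.5 and 46.7 FPKM in ESC and 17.1, 14.9 and 23.6 in EpiLC (log2 fold change -1.34, SE 0.19, adjusted p = 0.0111). E130012A19Rik, now called Epop, an accessory factor gene, fell by 2.17. Ezh1, the less common catalytic subunit, rose in contrast, at 8.87, 11.7 and 9.72 FPKM in ESC and 29.8, 27.6 and 15.3 in EpiLC (log2 fold change 1.14, SE 0.22, adjusted p = 0.023). Rbbp7, a histone-binding subunit gene, had 270.1, 103 and 118 FPKM in ESC and 177, 173 and 184 in EpiLC and did not pass (log2 fold change 0.26, SE 0.38, adjusted p = 0.654), with R1 ESC replicate 1 above all other libraries. Eed, Pcgf2, E130012A19Rik and Ezh1 lost the call without at least 1 library, at adjusted p of up to 0.12 (Ezh1) by limma. Rbbp7 passed without R1 ESC replicate 1 (log2 fold change 0.71, limma adjusted p = 0.00911).

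The H3K4 methylation and trithorax list, of enzymes that mark active promoters and their partners, had 1 rise and 6 falls among 23 (1 in each fit and 0 to 9 with 1 library left out), median -0.41. The falls took in core subunits shared by several complexes: Ash2l had 222, 186 and 193 FPKM in ESC and 93.4, 101 and 105 in EpiLC (log2 fold change -0.99, SE 0.15, adjusted p = 0.0117), Rbbp5 50.8, 36.3 and 34.3 FPKM in ESC and 18, 18.9 and 19.3 in EpiLC (log2 fold change -1.05, SE 0.18, adjusted p = 0.0174), and Wdr5 fell by 0.76. Dpy30, another shared subunit gene, had 295, 218 and 168 FPKM in ESC and 216, 229 and 232 in EpiLC and did not pass (log2 fold change 0.03, SE 0.21, adjusted p = 0.93). The rise was that of Setd7, a lysine methyltransferase gene on chromosome 3 (51319240 to 51371038, mm9), at 0.894, 2.13 and 1.38 FPKM in ESC and 17, 18.8 and 14.1 in EpiLC (log2 fold change 2.86, SE 0.23, adjusted p = 0.00301). Setd7 was a firm call. Ash2l, Rbbp5 and Wdr5 lost the call without at least 1 library, at adjusted p of up to 0.125 (Wdr5) by limma.

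Of other lysine and arginine methyltransferases, 1 rose and 5 fell among 36. Prdm14, a PR-domain factor gene of naive cells, was at 14.4, 23.2 and 20.5 FPKM in ESC and 1.26, 2.89 and 0.779 in EpiLC (log2 fold change -3.0, SE 0.33, adjusted p = 0.00591), and Setdb1, an H3K9 methyltransferase gene, fell by 0.81. The 1 rise was that of Suv39h1, another H3K9 methyltransferase gene, by 1.06. Demethylases gave 3 rises and 4 falls among 30, with the H3K9 demethylase gene Kdm3a at 77.2, 59.2 and 67.8 FPKM in ESC and 34.7, 38.2 and 26.5 in EpiLC (log2 fold change -1.02, SE 0.18, adjusted p = 0.0174), and Jhdm1d up by 1.3. Kdm3b fell by 0.95 and Rcor2, a partner of the H3K4 demethylase LSD1, fell by 0.97. Prdm14 was a firm call. Setdb1, Suv39h1, Kdm3a, Jhdm1d, Kdm3b and Rcor2 lost the call without at least 1 library, at adjusted p of up to 0.153 (Jhdm1d) by limma.

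Acetyltransferase and bromodomain genes gave 2 rises and 5 falls among 42. Myst4, also called Kat6b, a histone acetyltransferase gene, had 64.7, 66.5 and 74.3 FPKM in ESC and 17.5, 22.3 and 15.5 in EpiLC (log2 fold change -1.85, SE 0.18, adjusted p = 0.00438). Phf17, another gene of this list, fell by 1.18. Among deacetylases, the sirtuin genes Sirt6 and Sirt7 fell by 1.08 and 1.27. Of 47 remodeller genes 4 rose and 5 fell. Smarcd3, the BAF60c subunit known from heart and muscle, was at 9.34, 6.53 and 7.04 FPKM in ESC and 0.516, 0.397 and 0.677 in EpiLC (log2 fold change -2.49, SE 0.19, adjusted p = 0.00292), and the remodeller gene Chd9 had 12.9, 11 and 8.24 FPKM in ESC and 30.1, 39.9 and 32.5 in EpiLC (log2 fold change 1.59, SE 0.18, adjusted p = 0.00599). Chd4, the remodeller gene of the NuRD complex, had 201, 108 and 125 FPKM in ESC and 109, 90.2 and 149.8 in EpiLC and did not pass (log2 fold change -0.29, SE 0.31, adjusted p = 0.527). Myst4, Smarcd3 and Chd9 were firm calls. Phf17, Sirt6 and Sirt7 lost the call without at least 1 library, at adjusted p of up to 0.172 (Sirt6) by limma.

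Histone variants, linkers and chaperones, the most abundant chromatin list, had 2 rises and 2 falls among 41. H1f0, a replacement linker histone gene, fell by 1.37 and Hmgb3 rose by 0.96, while H2afz had 1270.4, 622 and 958 FPKM in ESC and 452, 393 and 708 in EpiLC and did not pass (log2 fold change -0.86, SE 0.32, adjusted p = 0.117). Npm1, the gene of the chaperone nucleophosmin, had 3280.2, 2130.3 and 2108 FPKM in ESC and 1948, 1733 and 2273 in EpiLC and did not pass (log2 fold change -0.31, SE 0.25, adjusted p = 0.407). Histone RNAs without poly(A) tails are poorly captured by the selection used. Of 45 heterochromatin, cohesin and nuclear architecture genes 7 rose (0 to 14 with 1 library left out) and 3 fell (2 to 4): Morc1, a repressor of transposons, fell by 1.44, Piwil2, of the germline piRNA pathway, rose by 1.46 and the cohesin subunit gene Stag2 by 1.06. The germline gene Mael also rose (log2 fold change 2.77, SE 0.41, adjusted p = 0.0123). Morc1 was a firm call. H1f0, Hmgb3, Piwil2, Stag2 and Mael lost the call without at least 1 library, at adjusted p of up to 0.124 (Hmgb3) by limma. H2afz passed without R1 ESC replicate 1 (log2 fold change -0.51, limma adjusted p = 0.0363).

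Few ribosomal protein genes passed. Of 80 cytosolic ribosomal protein genes 0 rose, also at an unadjusted p under 0.05 by limma, and 2 fell, with a median of -0.14. That is 2.5% called, against 20.3% of all genes. The larger of these falls was that of Rpl10l, a retrogene copy of Rpl10 whose reads are hard to assign, at 131, 49.9 and 66.7 FPKM in ESC and 8.97, 8.06 and 16.9 in EpiLC (log2 fold change -2.71, SE 0.43, adjusted p = 0.0144). Of 74 mitochondrial ribosomal protein genes 1 rose and 3 fell (5.41% called), among the falls Mrpl52, by 0.78. Cytosolic tRNA synthetases gave 0 rises, also at an unadjusted p under 0.05 by limma, and 6 falls among 21 (28.6% called). Their median was -0.55 in R1 and -0.07 in E14. Tars, for threonine, had 109, 88.9 and 82.8 FPKM in ESC and 37.4, 34.5 and 59.1 in EpiLC (log2 fold change -1.11, SE 0.24, adjusted p = 0.0296), and Cars, for cysteine, 49.4, 55.7 and 37.5 FPKM in ESC and 18.4, 19.4 and 23 in EpiLC (log2 fold change -1.18, SE 0.20, adjusted p = 0.0157), with E14 EpiLC the highest of the EpiLC for both. The RNA polymerase II subunit gene Polr2a fell by 1.21. Rpl10l, Mrpl52, Tars, Cars and Polr2a lost the call without at least 1 library, at adjusted p of up to 0.147 (Mrpl52) by limma.

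Proteasome genes gave 4 rises and 0 falls (6 lower at an unadjusted p under 0.05 by limma) among 38 tested. That is 10.5% called, against 20.3% of all genes, with a median of -0.24. Of the 4 rises, 3 were the subunits of the immunoproteasome, the form that replaces the standard catalytic subunits in cells exposed to interferon. Psmb8 was listed at 0 in R1 ESC replicate 2 and E14 ESC and at 0.038 FPKM in R1 ESC replicate 1, and had 14.1, 24.4 and 6.47 FPKM in EpiLC. Psmb9, on chromosome 17 (34319044 to 34324275, mm9), was at 0.0681, 0.847 and 0.543 FPKM in ESC and 16.8, 23 and 11.1 in EpiLC (log2 fold change 3.57, SE 0.32, adjusted p = 0.00389), and Psmb10 at 9.99, 6.56 and 8.6 FPKM in ESC and 65.1, 89.9 and 63.8 in EpiLC (log2 fold change 2.98, SE 0.22, adjusted p = 0.00262). The standard subunit gene Psmb5 had 401, 435 and 643 FPKM in ESC and 668, 461 and 652 in EpiLC and did not pass (log2 fold change 0.28, SE 0.21, adjusted p = 0.368). Psmb8, Psmb9 and Psmb10 had firm calls.

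After these values were seen, a list of antigen presentation and interferon-responsive genes was drawn up, so its counts describe the libraries and are not independent evidence. Of its 77 genes 56 were tested, of which 31 rose, 7 fell and 18 did not pass (15 to 33 rose and 1 to 9 fell with 1 library left out), with a median of 1.38. Members that fell included Socs3, Oas1a, Stat3 and Irf3. The summed level of the list overlapped between the states, at between 1163 and 1311 FPKM in ESC and 1104 and 1994 in EpiLC. Antigen presentation on class I molecules needs the TAP peptide carrier and the class I heavy chain with beta-2 microglobulin. Its peptides come from the standard proteasome or the immunoproteasome. Interferons act on such genes through factors of the IRF and STAT families, which bind their promoters.

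The promoters of 4 of the rising members that hold a motif of such factors are shown, so that the sites can be compared. They run from 250 bases before to 50 after the start, as given by RefSeq for GRCm38.p6, 5′ to 3′ on the strand of the gene. Capitals mark matches on either strand to a pattern bound by IRF factors, GAAA then any 2 bases then GAAA, or to one bound by STAT factors, TTCC then any 2 bases then GAA. Where the matches overlap, as in Bst2, the capitals run together. Gbp2 (chr3:142620413-142620712, plus strand) and Gbp7 (chr3:142530086-142530385, plus strand) encode guanylate-binding GTPases, Igtp (chr11:58199306-58199605, plus strand) an immunity-related GTPase, and Bst2 (chr8:71537423-71537722, minus strand) tetherin, which holds back budding viruses.
Gbp2: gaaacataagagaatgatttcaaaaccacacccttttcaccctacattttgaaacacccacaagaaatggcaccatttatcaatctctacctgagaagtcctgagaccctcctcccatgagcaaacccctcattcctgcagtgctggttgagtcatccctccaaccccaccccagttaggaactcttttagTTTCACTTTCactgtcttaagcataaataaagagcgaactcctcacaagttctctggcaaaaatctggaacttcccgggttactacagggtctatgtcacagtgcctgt
Gbp7: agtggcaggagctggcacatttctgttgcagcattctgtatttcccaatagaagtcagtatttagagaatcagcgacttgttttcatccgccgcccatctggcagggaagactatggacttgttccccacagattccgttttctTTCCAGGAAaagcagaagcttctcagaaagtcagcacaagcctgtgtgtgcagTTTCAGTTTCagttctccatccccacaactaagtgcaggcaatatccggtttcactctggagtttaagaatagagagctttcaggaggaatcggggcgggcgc
Igtp: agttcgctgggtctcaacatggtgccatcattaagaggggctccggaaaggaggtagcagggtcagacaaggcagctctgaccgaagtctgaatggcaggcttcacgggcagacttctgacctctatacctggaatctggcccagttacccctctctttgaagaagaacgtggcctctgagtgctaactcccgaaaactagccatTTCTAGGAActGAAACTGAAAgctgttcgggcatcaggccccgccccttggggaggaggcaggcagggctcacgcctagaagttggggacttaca
Bst2: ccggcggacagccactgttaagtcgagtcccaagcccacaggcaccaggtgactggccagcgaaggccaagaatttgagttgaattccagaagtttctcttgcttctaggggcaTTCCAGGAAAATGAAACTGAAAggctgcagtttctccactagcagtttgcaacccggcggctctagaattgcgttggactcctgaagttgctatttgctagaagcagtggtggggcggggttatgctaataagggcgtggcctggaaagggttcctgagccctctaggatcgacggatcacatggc

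A match to the IRF pattern was found in 10 of the 26 rising members with a promoter in the table (38.5%) and in 9 of 17 that did not pass (52.9%), against 3.44% of all 32851 promoters of that length. The STAT pattern was in 8 of 26 (30.8%) and 3 of 17 (17.6%), against 4.81% of all. Of the 6 members that fell and had a promoter, 2 held the IRF pattern (33.3%) and 0 the STAT pattern. Counted per gene over all genes tested, the shares were 3.32% and 5.25%. The share with the IRF pattern was thus no higher among members that rose than among those that did not pass, a difference that was not tested. A match is a description of letters and not evidence of binding.

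Of these 4 genes, Gbp2 went from under 0.03 FPKM in ESC to the values given above (log2 fold change 4.14, SE 0.32, adjusted p = 0.00283). Bst2 was already expressed in ESC, at 19.2, 17.7 and 13.6 FPKM in ESC and 135, 127 and 124 in EpiLC (log2 fold change 2.88, SE 0.14, adjusted p = 0.00141). Igtp had 0.22, 0.406 and 0.352 FPKM in ESC and 14.6, 16.2 and 6.47 in EpiLC (log2 fold change 3.25, SE 0.28, adjusted p = 0.00352), and Gbp7 0.0954, 0.029 and 0.0195 FPKM in ESC and 3.61, 5.39 and 1.08 in EpiLC (log2 fold change 1.91, SE 0.34, adjusted p = 0.018). Gbp1, a close paralogue whose reads may be shared, had 14.5, 21.5 and 6.18 FPKM in EpiLC and under 0.04 in ESC. In the GTPase genes E14 EpiLC was the lowest and R1 EpiLC with activin A the highest of the EpiLC, whereas the 3 EpiLC values of Bst2 were close together. Gbp2, Bst2, Igtp and Gbp1 were firm calls. Gbp7 lost the call without at least 1 library, at adjusted p of up to 0.0929 by limma.

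The factor genes themselves were divided. Irf1, on chromosome 11 (53583516 to 53591876, mm9), had 13, 12.4 and 10.5 FPKM in ESC and 76.7, 109 and 52.3 in EpiLC (log2 fold change 2.58, SE 0.20, adjusted p = 0.00292). Stat3, which relays LIF signals, fell from 36.9, 19.8 and 31.6 to 8.74, 10.9 and 6.77 FPKM (log2 fold change -1.61, SE 0.29, adjusted p = 0.019). Of the feedback inhibitors, Socs3 had 35.4, 28.9 and 46.2 FPKM in ESC and 2.53, 2.01 and 2.21 in EpiLC (log2 fold change -3.52, SE 0.18, adjusted p = 0.00141) and Socs1 2.41, 2.13 and 1.82 FPKM in ESC and 8.92, 9.08 and 7.07 in EpiLC (log2 fold change 1.58, SE 0.13, adjusted p = 0.00342), in opposite directions. LIF was in the ESC medium and is not named for the EpiLC medium, and its part in these values was not tested. Irf1, Socs3 and Socs1 had firm calls. Stat3 lost the call without at least 1 library, at adjusted p of up to 0.0974 by limma.

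In the presentation route itself, Tap1 had 0.869, 0.948 and 0.509 FPKM in ESC and 16.6, 16.4 and 8.45 in EpiLC (log2 fold change 3.01, SE 0.17, adjusted p = 0.00158) and Tap2 rose by 2.08. The proteasome activator genes Psme1 and Psme2 rose by 1.34 and 2.03, with Psme2 at 33.3, 43.4 and 32.6 FPKM in ESC and 157, 205 and 106 in EpiLC. H2-K1, a class I heavy chain gene with close paralogues, was at 2.61, 4.61 and 3.97 FPKM in ESC and 26.9, 34.2 and 23.1 in EpiLC (log2 fold change 2.63, SE 0.24, adjusted p = 0.00392). B2m, its light chain partner, had 25.6, 9.3 and 15.1 FPKM in ESC and 13.5, 7.56 and 10.5 in EpiLC and did not pass (log2 fold change -0.55, SE 0.40, adjusted p = 0.37). Oasl2, an interferon-induced gene related to the 2-5A synthetases, had 0.0709, 0.0839 and 0.0438 FPKM in ESC and 13.2, 18.7 and 6.2 in EpiLC (log2 fold change 3.56, SE 0.30, adjusted p = 0.00334), and the chemokine gene Cxcl12 rose by 4.26. Tap1, Psme2, H2-K1, Oasl2 and Cxcl12 were firm calls. Tap2 and Psme1 lost the call without at least 1 library, at adjusted p of up to 0.0777 (Psme1) by limma.

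**Figure D5:**
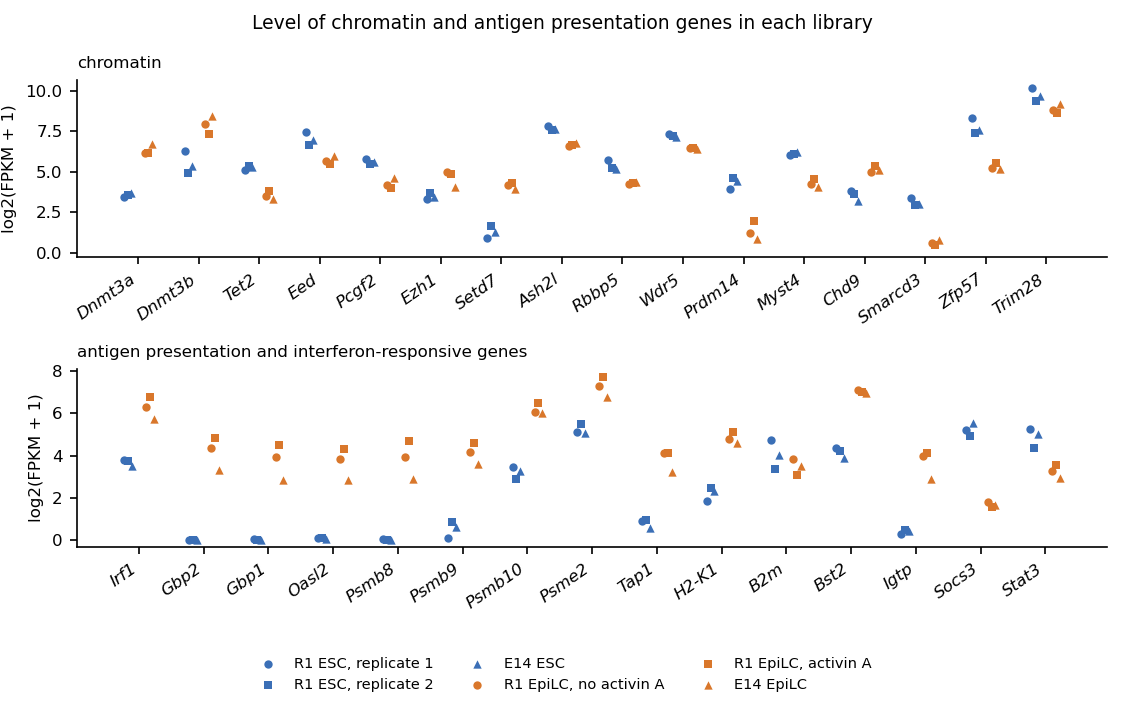
Level of chromatin genes (top) and antigen presentation and interferon-responsive genes (bottom) in each library, with the y axis as log2(FPKM + 1). Each point is 1 library, blue for ESC and orange for EpiLC. Irf1, Gbp2, Tap1 and the immunoproteasome genes lie higher in all 3 EpiLC libraries, Socs3 and Stat3 lower, and B2m overlaps between the states.

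The difference of the change between the lines was tested as an interaction over all genes: 40 passed (limma, adjusted p under 0.05), 15 with a more positive and 25 with a more negative change in E14, which has 1 library of each state. Of these, 32 were small RNAs, whose values are hard to interpret in polyadenylated RNA, and the other 8 were each listed at 0 in at least 1 library. No gene given with its fold change above was among them. On the X chromosome, 58 of 417 genes tested rose (13.9%) and 31 fell (7.43%), against 9.73% and 10.6% of all genes. Among the chromosomes compared, X had the largest share of rises and the smallest of falls. Shares also differed elsewhere, with 12.2% higher and 8.29% lower on chromosome 3 and 7.98% higher and 13.6% lower on chromosome 17. These differences were not tested.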

How the data were processed

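Each of 6 RNA sequencing libraries has a deposited table of FPKM per gene, which the authors made with TopHat and Cufflinks on mouse build mm9, per the submitters' processing notes. Neither tool version nor annotation is given in the sources used here. Per the labels' protocols, poly(A) RNA was primed with random hexamers and no strand was marked, so a gene cannot be separated from one that overlaps it or lies antisense. Cultures were independent within each state, per the labels' protocols. The p-values measure spread that in EpiLC includes activin A.

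Tables had 23112 entries. Exact repeats (17) were dropped and 228 entries were summed with another of the same symbol, leaving 22867 symbols. Coordinates follow the deposited mm9 tables, with starts, which count from 0 there, raised by 1. The test used limma 3.58.1 under R 4.3.3 (eBayes with trend, two-sided) on log2(FPKM + 1) for the 12244 genes averaging 1 FPKM or more. Cell line was a covariate and p-values were adjusted by Benjamini-Hochberg, with a threshold of 0.05. The test was checked on simulated data with independent noise of the same spread in all 6 libraries. That check cannot speak to a library that stands apart, as R1 ESC replicate 1 did. Depth was approximated from the FPKM steps of olfactory receptor genes, taking 1 kb per transcript. An exact 0 in an expressed gene can be a failed estimate, and such genes are given as listed at 0.

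The gene lists and members were chosen with earlier results of these data known. The rule for named genes took, per list, up to 4 called genes with the largest rises and 4 with the largest falls, with no value of 0 and no overlap between states, and up to 3 of the most abundant members. It added the 20 largest changes each way over all genes, the 10 largest each way at a mean of 100 FPKM or more, and genes going from under 1 to at least 10 FPKM or back. A selection of these is described, and some genes are not reported here. Lamb2, Lamc1 and part of the antigen presentation list (B2m, Bst2, Gbp7, H2-K1, Igtp, Irf1, Psmb8, Psme1, Psme2, Socs1, Tap1, Tap2) were chosen after their values were seen. Promoters are those of RefSeq on GRCm38.p6, matched by symbol for 77.6% of the genes tested. Motif shares are given only for the antigen presentation list, where 83.9% of rising members matched, and beside them for all promoter entries and for all genes tested. A gene with several promoters counts once in the list and among the genes tested, but each entry counts in the share of all entries, so these shares differ in their base. The 15 alternatives were other pseudocounts, filters and scalings, no covariate, no trend, R1 alone, and each library left out.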

Additional observations from a re-analysis of the deposited data

Results flagged for a closer look

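Slc2a1, Aldoa, Bsg, Npm1 and Slc25a5, abundant genes that did not pass, had opposite directions in the lines. For Slc2a1, Aldoa and Bsg every R1 EpiLC value lay above every R1 ESC value and the E14 EpiLC value below that of E14 ESC. For Npm1 and Slc25a5 it was the other way round. The log2 fold change of Slc2a1 was -0.35 in E14 and 1.24 in R1, that of Aldoa -0.87 and 0.48, that of Bsg -0.19 and 0.16, that of Npm1 0.11 and -0.52 and that of Slc25a5 0.14 and -0.42. The differences did not pass in the test over all genes (limma interaction, adjusted p = 0.914 for all 5), and E14 has 1 library of each state.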

How the results depend on the processing

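Counts of genes higher and lower were within 1.5 times of 1191 and 1293 under other pseudocounts, scalings, no filter, no line covariate and no trend. A mean of at least 5 FPKM left 672 higher, and R1 alone gave 515 higher and 366 lower. With 1 library left out the counts ran from 211 to 1890 higher and from 187 to 2228 lower. Of 193 named genes that passed, 0 reversed and 89 passed in all 15 alternatives. Genes that did not pass could change sign. With R1 alone Fasn was at -0.18, Slc2a3 at 0.059, Dpy30 at -0.19 and Ldha at 0.21. With median-ratio and quantile scaling Ctnnb1 was at 0.013 and 0.14 and Ldha at 0.068 and 0.18. With 1 library left out Fasn was between -0.18 and 0.33, Slc2a3 between -1.04 and 0.059, Aldoa between -0.32 and 0.48, Bsg between -0.014 and 0.16, Chd4 between -0.56 and 0.045, Dpy30 between -0.19 and 0.22, Ldha between -0.21 and 0.21, Rbbp7 between -0.087 and 0.71 and Tfrc between -0.24 and 0.47. The cause was not tested. No paired analysis was possible because the EpiLC libraries carry no replicate numbers. E14 EpiLC, the shallowest library, limits what can be said of low genes: a 2 kb transcript at 5 FPKM rests there on about 66 fragments. The tests measure RNA level and not protein.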
